A study of Homo sapiens with 20 samples.

Results

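A set of 6 genes of serine/arginine-rich (SR) splicing factors (SRSF2, SRSF3, SRSF4, SRSF5, SRSF6 and SRSF7) and all 4 genes of the CDC2-like kinases (CLK1, CLK2, CLK3 and CLK4) were followed through proteasome inhibition in the human cell line HCT-116, established from a colorectal carcinoma. These 10 genes were taken by symbol from a table of 39918 genes, and 10 of 10 passed the filter on low counts that left 18959 genes for testing. The 20 total RNA libraries formed 5 groups of 4. In 3 groups, cells were arrested for 16 h with 2 mM thymidine, a block to DNA replication, released for 7 h and then given drug for 3 h: MG132 at 20 µM, bortezomib at 100 nM, or MG132 at 20 µM together with α-amanitin at 50 µg/ml. MG132 and bortezomib inhibit the proteasome, and α-amanitin inhibits RNA polymerase II. G2 cells had the same thymidine block and release and were collected at 0 h of drug, and asynchronous cells had neither block nor drug. Each drug group therefore differed from G2 cells by the drug and by 3 h of cell cycle time, and the parts of the drug and of time cannot be told apart. The drug groups were matched to each other in time. The labels do not tell whether replicates were cultured separately, and p-values therefore measure only the spread between these samples. All of them come from 1 cell line.

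SR proteins bind exonic sequences of pre-mRNA through an RNA recognition motif and recruit the splicing machinery through a tail rich in arginine and serine. CLK kinases phosphorylate that tail in the nucleus, which releases SR proteins from nuclear speckles, the compartments where splicing factors are stored. Many SR genes hold a highly conserved "poison" exon whose inclusion sends their own mRNA to nonsense-mediated decay, and CLK1 and CLK4 are known to keep retained introns in a nuclear RNA pool that is spliced when cells are stressed. A count per gene adds all of these transcript forms, so productive and unproductive mRNA were not separated here.

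Libraries held between 26797395 and 39710457 counts. Levels are CPM, read counts scaled to library sizes that were adjusted by the trimmed mean of M-values (TMM), so they are relative to the other RNAs of the same library and do not show a change in total RNA per cell. Epithelial and colon identity was checked with 10 markers, of which 7 passed the filter, and their summed level was 3140 to 5870 CPM. KRT8, KRT18 and KRT19 had medians of 2010, 1280 and 627 CPM over the 20 libraries. CDX2 and KRT20 had medians of 9.03 and 2.88 CPM, and VIL1, CDX1 and CEACAM5 were near 0. The sum therefore shows epithelial cells and says little on colon identity. Sums of 10 fibroblast markers were 3.75 to 13.6 CPM and those of 9 leukocyte markers 1.69 to 6.55 CPM. For each library, each gene's deviation from its mean log2 CPM over the 20 libraries was regressed on GC content and log10 exon length. The slope on GC content differed between libraries. It was −0.41 and 0.74 log2 units per 10 percentage points of GC in MG132 replicates 2 and 4, 0.36 in G2 replicate 2 and 0.50 in asynchronous replicate 3, against −0.27 to 0.20 in the other 16 libraries. The members' transcripts ranged from 35.7% GC for CLK1 to 52.3% for CLK2, so results are given with and without these 4 libraries where they change.

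The 250 bases before the first listed start of CLK1 and of CLK4 are shown because CLK1 was the member called in the tests and CLK4 is its close paralogue. Both are from RefSeq on GRCh38.p14 and are written 5′ to 3′ in the direction of transcription, which is the minus strand for both genes. Capitals mark CGTCA, which reads TGACG on the other strand, the core letters of the cAMP response element.
CLK1, chr2:200864659-200864908, minus strand: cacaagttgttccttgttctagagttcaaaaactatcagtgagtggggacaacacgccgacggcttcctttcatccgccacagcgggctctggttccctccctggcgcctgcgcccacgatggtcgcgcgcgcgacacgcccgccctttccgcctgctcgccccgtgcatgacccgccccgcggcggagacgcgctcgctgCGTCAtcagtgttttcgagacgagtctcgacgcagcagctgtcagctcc
CLK4, chr5:178627051-178627300, minus strand: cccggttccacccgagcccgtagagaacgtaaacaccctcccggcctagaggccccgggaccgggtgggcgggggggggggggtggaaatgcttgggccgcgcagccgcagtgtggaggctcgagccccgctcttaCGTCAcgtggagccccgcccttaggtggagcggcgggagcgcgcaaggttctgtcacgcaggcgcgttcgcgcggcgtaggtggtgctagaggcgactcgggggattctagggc
RefSeq promoters were matched for 9 of the 10 genes, and SRSF2 was the one without a match. On both strands, TGACG was found in the first listed promoter of 4 of these 9 genes, 49 bases before the start in CLK1, 114 in CLK4, 93 in SRSF3 and 50 in SRSF5, against 21.2% of 35116 promoters. The CLK4 match is part of TGACGTAA, which 0.37% of promoters hold, and overlaps the E-box letters CACGTG, which 6.34% hold. The whole element TGACGTCA (1.65% of promoters) and the paired heat shock unit GAANNTTC (5.78%) were found in none of the 9. The shares cover all listed starts, including further starts of a gene. The second listed starts of SRSF7, CLK3 and CLK1 also had TGACG, at 58, 44 and 146 bases before them, so the count of genes depends on the start used. These matches describe letters in a window and say nothing of binding.

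CLK1 was the only one of the 10 genes called in MG132-treated cells against G2 cells, and it rose. CLK1 (ENSG00000013441.16, hg38 chromosome 2, 200853009 to 200864744, minus strand) encodes the best studied nuclear kinase of SR proteins. Its level in MG132 replicates 1 to 4 was 96.8, 162.3, 119.4 and 34.2 CPM, against 48.5, 22.9, 40.8 and 43.8 CPM in G2 replicates 1 to 4. 3 of the 4 MG132 libraries lay above every G2 library, and MG132 replicate 4, the library with the steepest GC slope, lay within the G2 range. The group means were 103.2 ± 53.4 CPM in MG132 cells and 39.0 ± 11.2 CPM in G2 cells (SD, n = 4 each). The log2 fold change was 1.40 with a standard error (SE) of 0.35 and an adjusted p of 0.0395 by edgeR's quasi-likelihood test. 1 of 10 members was called higher, against 1.01% of all genes tested, and 0 of 10 had libraries that did not overlap between the groups, against 6.52% of all genes. In these bulk libraries, a change in how many cells express a gene and a change in RNA per cell cannot be told apart. A letter in the sample codes is undocumented and may mark a batch; between libraries of the same letter the log2 ratio of MG132 over G2 was 1.74 (1 library against 1) and 1.10 (2 against 3). Over 19 alternative settings the log2 fold change stayed between 1.10 and 1.70, but the call was kept in 8 of them. Among other settings, it was lost with mitochondrial mRNA scaling (log2 1.10, adjusted p = 0.153), with the code letter as a block (1.30, 0.153), in a fit of only these groups (1.45, 0.269) and when any 1 library of these groups other than MG132 replicate 4 was left out (log2 1.10 to 1.53, adjusted p 0.0628 to 0.141), and was kept under an offset for GC content and length (1.23, 6.43e-05) and without the 4 libraries of steep GC slope (1.26, 0.000373).

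With bortezomib, CLK1 was measured at 85.4, 76.3, 64.5 and 77.3 CPM in replicates 1 to 4. All 4 bortezomib libraries lay above all 4 G2 libraries, whose highest level was 48.5 CPM. Only bortezomib replicate 1 shared its code letter with G2 libraries, at a log2 ratio of 1.25 (1 library against 3). The other bortezomib libraries had letters that no G2 library had, so drug and a possible batch cannot be told apart there. With the letter as a block the edgeR log2 fold change was 1.03 (adjusted p = 0.894). The log2 fold change of bortezomib over G2 was 0.96 (SE 0.35), and the edgeR adjusted p of 0.188 did not pass the threshold. Libraries of the groups did not overlap for 1 of 10 members in the higher direction, against 7.66% of all genes. Without the 4 libraries of steep GC slope the call was made, at a log2 fold change of 0.74 and an adjusted p of 0.011, and with the GC and length offset it was not (0.56, 0.0614). Between the inhibitors themselves, CLK1 had a log2 fold change of 0.44 (SE 0.34) for MG132 over bortezomib with an edgeR adjusted p of 0.983. Between libraries of the same code letter the log2 ratio was −0.15 (2 libraries against 1), and with the letter as a block it was 0.27. Of the 10 members, 0 were called in this comparison, against 0.0369% of all genes. In that comparison edgeR gave 0 members an unadjusted p under 0.05, against 768 of 18959 genes. DESeq2 called 0 members, against 19 genes, and 0 members had groups that did not overlap, against 3.16% of all genes. The MG132 and bortezomib comparisons share their G2 libraries, and the comparison of the combined treatment with MG132 cells shares its MG132 libraries with that of MG132 against G2.

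In cells given MG132 together with α-amanitin, CLK1 fell relative to cells given MG132 alone. Its level was 32.0, 34.4, 38.3 and 33.2 CPM in replicates 1 to 4 of the combined treatment, against 96.8, 162.3, 119.4 and 34.2 CPM in MG132 replicates 1 to 4. The combined libraries lay close together and below 3 of the 4 MG132 libraries, with MG132 replicate 4 inside their range. The log2 fold change was −1.58 (SE 0.35, edgeR adjusted p = 0.0174). 1 of 10 members was called lower, against 1.51% of all genes. Between libraries of the same code letter the log2 ratio was −1.60, −2.24 (1 library against 1 in both) and −1.21 (1 against 2). The fold change stayed between −1.87 and −1.28 over 19 settings and was called in 14 of them. The call was lost with that letter as a block (−1.64, adjusted p = 0.0566), in a fit of only these groups (−1.58, 0.119), or without MG132 replicate 2 (−1.28, 0.075), replicate 1 of the combined treatment (−1.55, 0.0747) or its replicate 2 (−1.58, 0.0621). Against G2 cells the combined treatment gave CLK1 a log2 fold change of −0.18 (SE 0.34, adjusted p = 0.891), and the libraries overlapped.

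**Figure D1:**
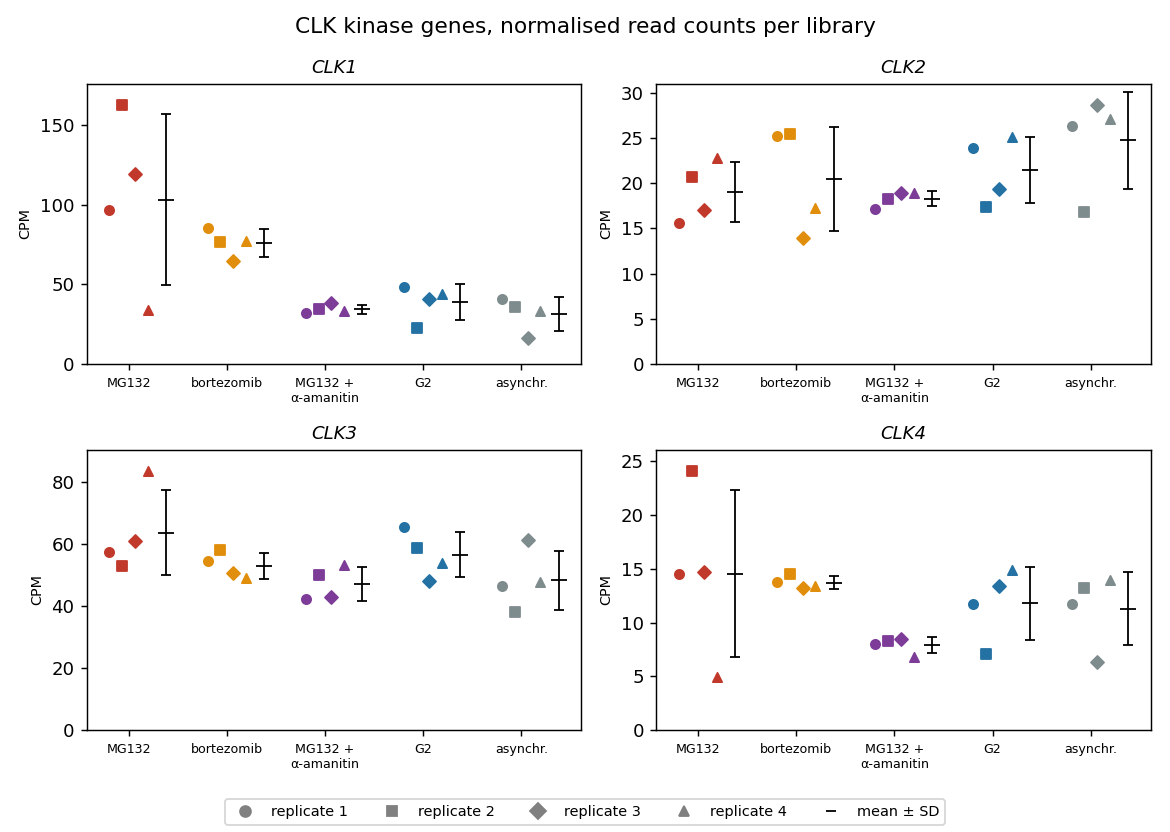
Normalised read counts of CLK1, CLK2, CLK3 and CLK4 in CPM (vertical axes, from 0), 1 point for each library by group with the group mean ± SD (n = 4 each). 3 of the 4 MG132 libraries and all 4 bortezomib libraries of CLK1 lie above the highest G2 library at 48.5 CPM, while MG132 replicate 4 lies at 34.2 CPM.

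The other CLK genes did not pass the test in any comparison. CLK4, the closest paralogue of CLK1 by sequence and known function, had 14.5, 24.1, 14.7 and 5.0 CPM in MG132 replicates 1 to 4, against 11.8, 7.1, 13.4 and 14.9 CPM in G2 replicates 1 to 4. The groups overlapped, with the highest and the lowest level both among MG132 libraries. Bortezomib libraries had 13.2 to 14.6 CPM of CLK4, within the G2 range. CLK4 in the combined treatment was 6.83 to 8.51 CPM, and its log2 fold change was −0.88 over MG132 alone (SE 0.33, adjusted p = 0.236) and −0.57 over G2 (SE 0.33, adjusted p = 0.476). Both were called lower under the GC and length offset (−0.81 with an adjusted p of 0.00208, and −0.68 with 0.00763) and without the 4 libraries of steep GC slope (−0.88 with 0.00364, and −0.78 with 0.00309). CLK3, a kinase of the same family, had 52.9 to 83.7 CPM in MG132 cells and 48.3 to 65.7 CPM in G2 cells. Its highest level was in MG132 replicate 4, where CLK1 and CLK4 were lowest of their group. CLK2, which is known to phosphorylate SR proteins as CLK1 does, had 15.6 to 22.7 CPM in MG132 cells and 17.4 to 25.0 CPM in G2 cells, and its log2 fold changes in the 6 comparisons ran from −0.23 to −0.06. In the combined treatment CLK3 had 42.4 to 53.4 CPM, with a log2 fold change of −0.43 over MG132 alone (SE 0.18, adjusted p = 0.307), and CLK2 had 17.1 to 18.9 CPM.

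The ratio of CLK1 to CLK4 counts does not depend on how libraries are scaled, and the 2 transcripts are alike in GC content (35.7% and 36.2%). It was chosen after the values were seen and is given as a description with no test. CLK1 counts were 6.68, 6.74, 8.13 and 6.88 times those of CLK4 in MG132 replicates 1 to 4, against 4.12, 3.21, 3.05 and 2.95 times in G2 replicates 1 to 4. In this measure MG132 replicate 4 lay with the other MG132 libraries, and no MG132 library overlapped a G2 library. Bortezomib libraries had ratios of 4.90 to 6.20, also above every G2 library. The combined treatment had 4.00 to 4.87, below every MG132 library and overlapping the G2 libraries, and asynchronous cells had 2.39 to 3.48. The ratio to CLK4 did not overlap in the same direction for 0.612% of the 18958 genes other than CLK4 for MG132 over G2. The share was 3.28% for bortezomib over G2 and 0.586%, lower, for the combined treatment over MG132. Those genes were not matched to CLK4 in GC content, so the shares do not measure chance for a ratio chosen in this way. CLK1 made up 23.5% to 62.4% of all CLK counts in MG132 cells and 43.7% to 49.3% in bortezomib cells, against 21.6% to 33.5% in G2 cells.

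**Figure D2:**
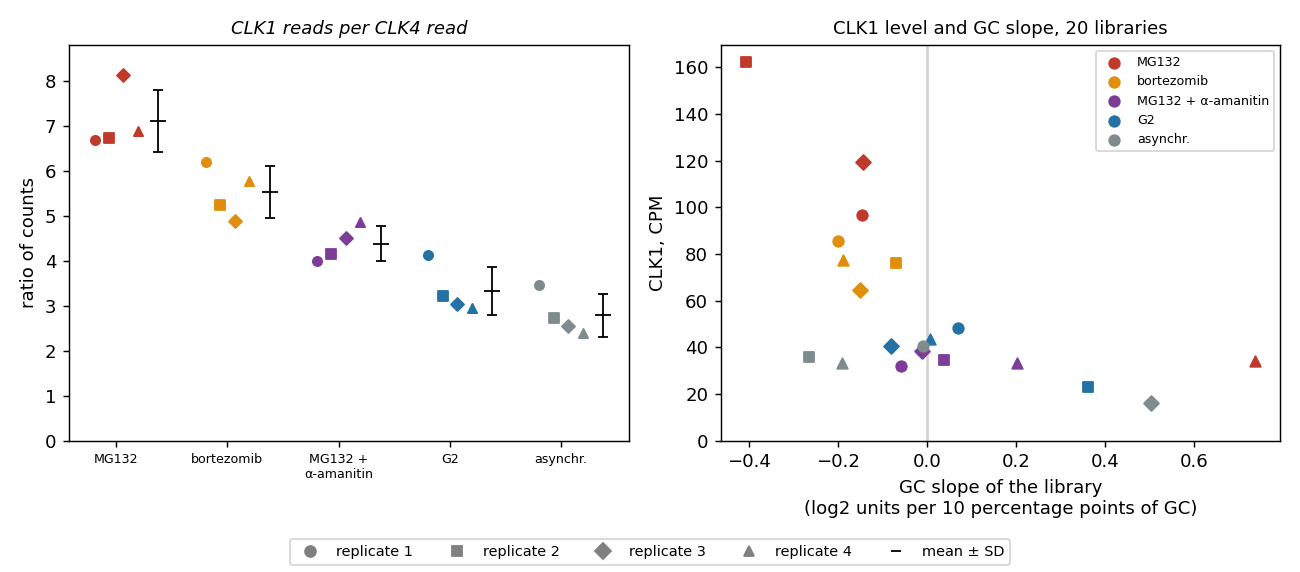
Ratio of CLK1 to CLK4 read counts (vertical axis, from 0), 1 point for each library by group with the group mean ± SD (n = 4 each). MG132 libraries lie at 6.68 to 8.13 and bortezomib libraries at 4.90 to 6.20, against 2.95 to 4.12 in G2 cells.

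None of the 6 SR genes was called by the main edgeR fit in any of the comparisons. Other settings called SR genes lower in the combined treatment than with MG132 alone. DESeq2 called SRSF2 (adjusted p = 0.0138), and edgeR with the GC and length offset called SRSF2 (0.0136) and SRSF7 (0.0275). Without MG132 replicate 4, edgeR called SRSF3 (0.022) and SRSF7 (0.015). In MG132 cells against G2 cells the log2 fold changes of the SR genes ran from 0.09 for SRSF5 to 0.58 for SRSF7. Their median was 0.27 beside −0.03 for all genes tested, and those of SRSF2, SRSF5 and SRSF6 turned negative under mitochondrial mRNA scaling. SRSF7, a shuttling SR protein with a zinc knuckle, had 248.9, 537.4, 289.1 and 120.4 CPM in MG132 replicates 1 to 4, against 279.6, 188.7, 149.1 and 185.2 CPM in G2 replicates 1 to 4. MG132 replicates 2 and 4 were above and below the whole G2 range. SRSF3, the smallest SR protein, showed the same order within the MG132 group, with 732.0 CPM in replicate 2 and 259.5 CPM in replicate 4, against 322.3 to 413.1 CPM in G2 cells. SRSF6, which acts on alternative exons, had 557.3 CPM in MG132 replicate 2 and 209.7 CPM in replicate 4, against 286.6 to 329.1 CPM in G2 cells. In these 3 genes, as in SRSF5, CLK1 and CLK4, MG132 replicate 2, with the most negative GC slope, was highest of its group. MG132 replicate 4, with the most positive slope, was lowest. SRSF5 had 176.2 CPM in replicate 2 and 123.3 CPM in replicate 4. SRSF2 was also highest in replicate 2, at 508.8 CPM, but lowest in replicate 1, at 277.2 CPM. SRSF4, at 40.7% GC, went the other way and was lowest in replicate 2, at 62.7 CPM. The part of GC content in the spread of the MG132 group was not tested beyond the offset. Under the offset none of the 6 SR genes was called for MG132 against G2.

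In bortezomib cells against G2 cells the log2 fold changes of the SR genes ran from 0.16 for SRSF3 to 0.38 for SRSF7, with a median of 0.30 beside −0.02 for all genes. SRSF5, an SR protein first described as an insulin-induced growth response gene in rat, had 125.9 to 196.5 CPM in bortezomib cells and 124.7 to 143.8 CPM in G2 cells. SRSF4, whose arginine/serine tail is among the longest of the family, had 74.9 to 95.7 CPM in bortezomib cells and 44.1 to 75.8 CPM in G2 cells. The ranges of both genes overlapped, and their edgeR adjusted p-values were 0.390 and 0.405. Across the 10 members 0 were called for bortezomib, against 1.15% of all genes. edgeR gave 1 member (CLK1) an unadjusted p under 0.05, against 2753 of 18959 genes, and DESeq2 called 0 members, against 621 genes. With the GC and length offset the log2 fold changes of SRSF3, SRSF4, SRSF5 and SRSF6 were −0.29, −0.08, −0.01 and −0.18, and under mitochondrial mRNA scaling those of SRSF3 and SRSF6 were also below 0.

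SRSF2 was the only one of the 6 SR genes whose libraries in the combined treatment did not overlap those of MG132 or of G2 cells. SRSF2 (ENSG00000161547.17, hg38 chromosome 17, 76734115 to 76737374, minus strand) encodes an SR protein that stays in the nucleus and is known to limit its own mRNA. Its level was 176.2, 173.7, 227.6 and 240.9 CPM in replicates 1 to 4 of the combined treatment, against 277.2, 508.8, 326.7 and 316.7 CPM in MG132 replicates 1 to 4 and 354.6, 347.9, 256.3 and 294.8 CPM in G2 replicates 1 to 4. All 4 libraries of the combined treatment lay below all MG132 and all G2 libraries. The log2 fold change was −0.80 over MG132 (SE 0.23, edgeR adjusted p = 0.0774) and −0.62 over G2 (SE 0.23, adjusted p = 0.179), neither of which passed. The difference from MG132 was called by DESeq2 (−0.85, adjusted p = 0.0138) and under the GC and length offset (−0.87, adjusted p = 0.0136). 1 of 10 members lay wholly lower in each comparison, against 4.01% of all genes relative to MG132 and 7.24% relative to G2. Of the exonic bases of SRSF2, 1106 of 3017 overlap MFSD11 on the opposite strand, and the strand setting of the counting is not given, so reads of these genes may not be fully separated.

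SRSF7 and SRSF3 also had lower means in the combined treatment than in MG132 cells. SRSF7 averaged 153.3 ± 16.6 CPM in the combined treatment and 298.9 ± 174.5 CPM in MG132 cells, and SRSF3 averaged 283.3 ± 47.9 CPM in the combined treatment and 470.5 ± 197.0 CPM in MG132 cells (SD, n = 4 each). The log2 fold changes of −0.96 (SE 0.32) and −0.73 (SE 0.25) had edgeR adjusted p-values of 0.159 and 0.164, and MG132 replicate 4 lay within or below the combined libraries in both. Without that library SRSF7 (−1.23, adjusted p = 0.015), SRSF3 (−0.94, adjusted p = 0.022) and CLK4 (−1.17, adjusted p = 0.0167) were called lower beside CLK1. That fit called 382 of 19374 genes lower, where the fit of all libraries called 286 of 18959. SRSF4, SRSF5 and SRSF6 had log2 fold changes of −0.24, −0.18 and −0.23. The median over the 10 members was −0.58, beside 0.02 for all genes. In this comparison 6 of 10 members had an unadjusted edgeR p under 0.05, against 2368 of 18959 genes. Relative to G2 cells, 0 of 10 members were called in the combined treatment, against 3.35% of all genes. The unadjusted edgeR p was under 0.05 for 1 member (SRSF2), against 2726 of 18959 genes. DESeq2 called 0 members, against 1005 genes.

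**Figure D3:**
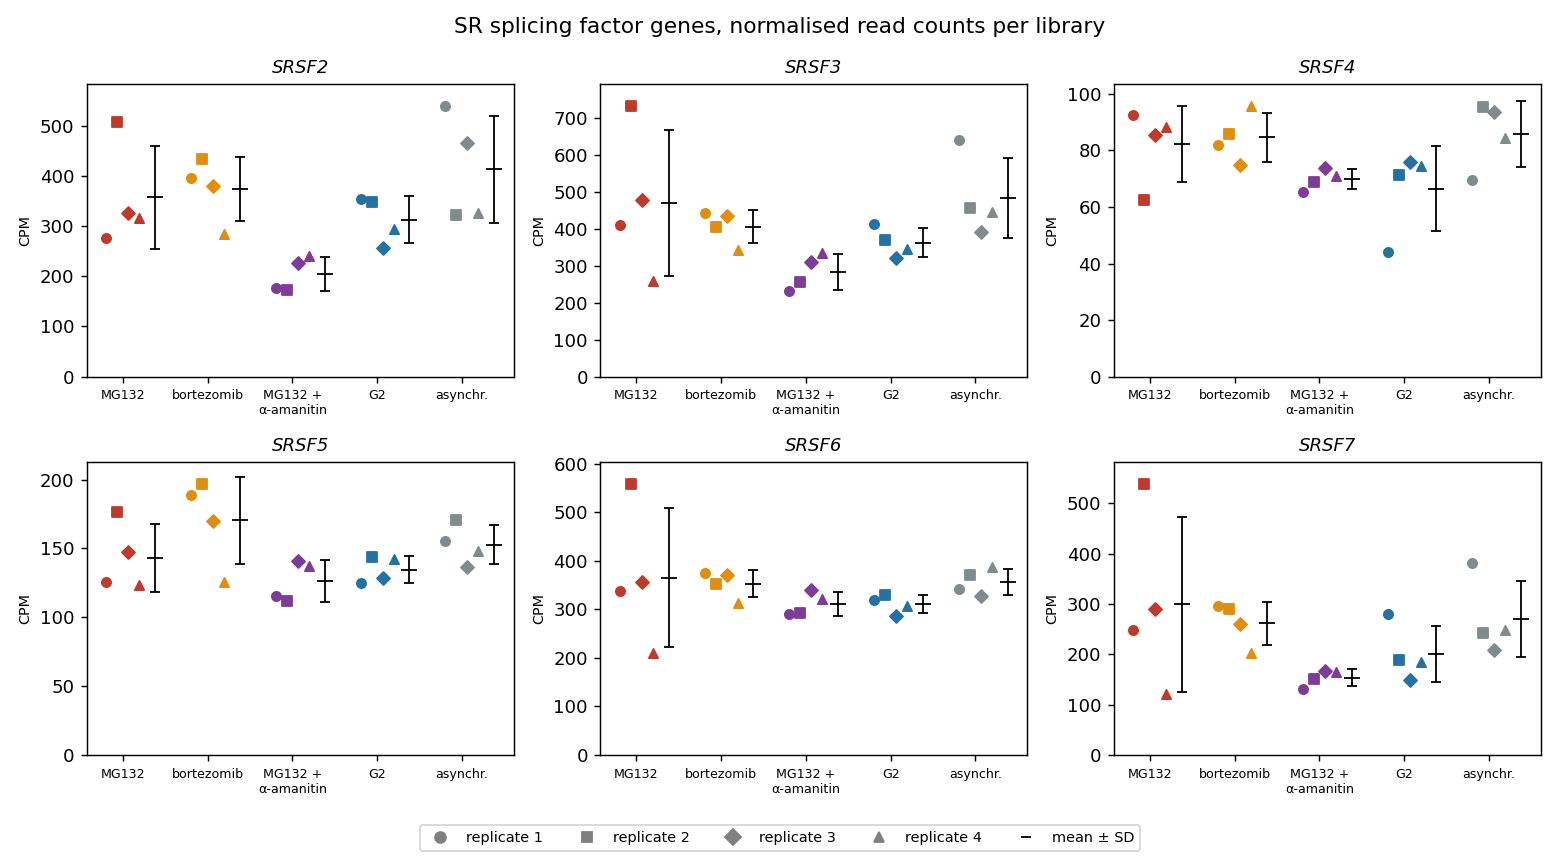
Normalised read counts of the 6 SR genes in CPM (vertical axes, from 0), 1 point for each library by group with the group mean ± SD (n = 4 each). SRSF2 lies at 173.7 to 240.9 CPM in the combined treatment, below every MG132 and G2 library. MG132 replicates 2 and 4 are the highest and lowest of their group for SRSF3, SRSF5, SRSF6 and SRSF7, while replicate 2 is the lowest for SRSF4.

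Between G2 and asynchronous cells none of the 10 genes passed the test, against 2.09% of all genes. edgeR gave 0 members an unadjusted p under 0.05, against 2487 of 18959 genes. DESeq2 called 0 members, against 714 genes, and 0 members had groups that did not overlap, against 7.64% of all genes. All 6 SR genes had negative log2 fold changes, from −0.43 for SRSF7 to −0.18 for SRSF5, with adjusted p-values of 0.423 to 0.814. SRSF3 was at 322.3 to 413.1 CPM in G2 cells and 392.2 to 641.4 CPM in asynchronous cells. CLK1 was at 22.9 to 48.5 CPM in G2 cells and 16.3 to 40.6 CPM in asynchronous cells, with the lowest level of each group in the library of steep positive GC slope.

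**Figure D4:**
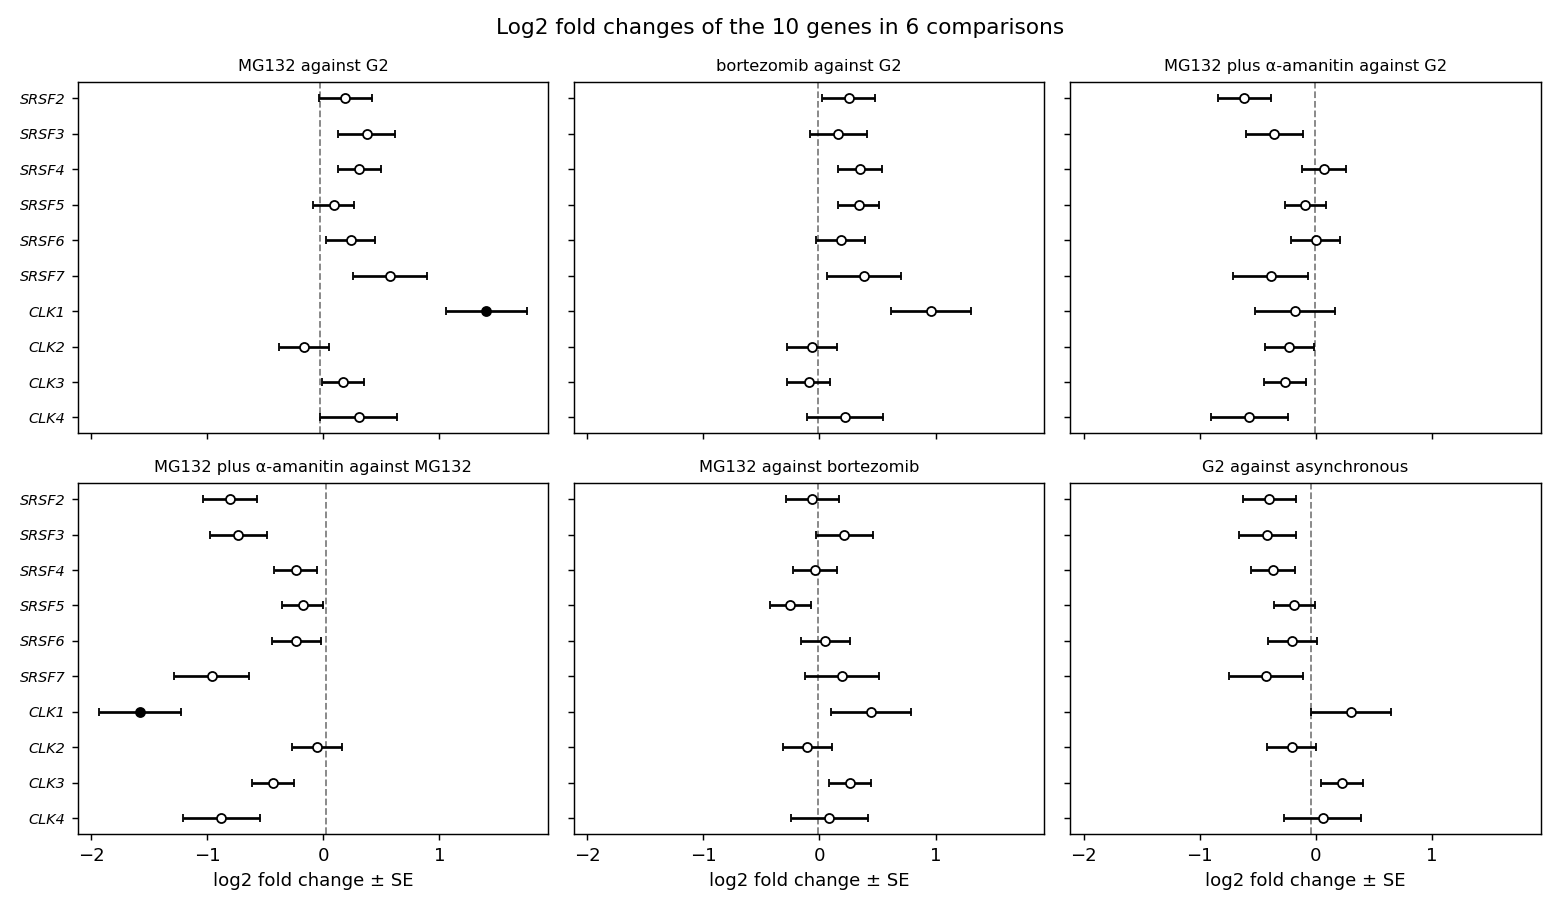
Log2 fold change of each gene in the 6 comparisons with its standard error from the edgeR fit over all 20 libraries. CLK1 stands at 1.40 for MG132 over G2 and at −1.58 for the combined treatment over MG132, the calls at an adjusted p under 0.05.

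Per kilobase of annotated exon, the SR genes other than SRSF4 stood above the CLK genes. In G2 cells SRSF2 was highest at 103.9 ± 15.4 CPM per kb, followed by SRSF6 at 67.6 ± 4.0, SRSF3 at 51.0 ± 5.4, SRSF7 at 49.6 ± 13.7 and SRSF5 at 25.1 ± 1.8 CPM per kb. CLK1 at 7.54 ± 2.16, SRSF4 at 7.47 ± 1.69 and CLK2 at 5.83 ± 0.99 CPM per kb lay within their spreads of each other, as did SRSF3 and SRSF7. CLK3 had 2.78 ± 0.36 and CLK4 1.49 ± 0.42 CPM per kb. In MG132 cells CLK1 stood at 19.96 ± 10.3 CPM per kb and SRSF4 at 9.26 ± 1.51 CPM per kb (SD, n = 4 each throughout). Exon lengths are unions of all annotated exons, which for CLK3 come to 20443 bases and may understate its level.

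Across the 20 libraries SRSF3 and SRSF7 had the most similar log2 levels among the members (Pearson r = 0.956). CLK1 and CLK4 had r = 0.778, and these values share group structure, depth and GC slope between points. Among 10082 genes of sufficient level, those most like CLK1 over the 20 samples were DNAJB4 (r = 0.981), ZFAND5 (r = 0.943) and ZCCHC8 (r = 0.940). DNAJB4, a co-chaperone of the Hsp40 family, averaged 164 CPM with MG132, 83.7 with bortezomib and 34.7 with the combined treatment, against 32.0 CPM in G2 and 25.3 CPM in asynchronous cells. ZFAND5, a zinc finger protein that binds ubiquitin, averaged 195, 184 and 128 CPM in the same drug groups, against 115 CPM in G2 cells.

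The wider splicing machinery, in 5 lists with 128 tested genes, held calls in a share near that of all genes or below it. For MG132, for bortezomib and for MG132 over bortezomib, 0 of 128 were called by edgeR, where it called 2.08%, 1.15% and 0.0369% of all genes. In that order, 9, 11 and 1 of the 128 had an unadjusted edgeR p under 0.05, against 2238, 2753 and 768 of 18959 genes. DESeq2 called 1, 2 and 0 of the 128, against 647, 621 and 19 of 18959 genes. In each of the other comparisons edgeR called 1 of 128, lower, where it called 3.35% of all genes for the combined treatment over G2, 2.19% for the combined treatment over MG132 and 2.09% for G2 over asynchronous. In the same order, 7, 6 and 19 of the 128 genes had an unadjusted edgeR p under 0.05, against 2726, 2368 and 2487 of 18959 genes. DESeq2 called 2, 3 and 4 of the 128, against 1005, 718 and 714 of 18959 genes. PPP1R10, which holds protein phosphatase 1 in the nucleus, averaged 51.4 ± 7.7 CPM in the combined treatment and 98.4 ± 11.7 CPM in G2 cells, with a log2 fold change of −0.94 (SE 0.23, edgeR adjusted p = 0.0254), and kept the call in 13 of 19 settings. TRA2B, an SR-like splicing activator, averaged 203.0 ± 9.3 CPM in the combined treatment and 361.0 ± 105.0 CPM in MG132 cells, with a log2 fold change of −0.83 (SE 0.20, edgeR adjusted p = 0.0299), and kept the call in 6 of 19 settings. HNRNPD, an RNA-binding protein of AU-rich elements, was the 1 gene called by edgeR between G2 and asynchronous cells, at 76.7 ± 7.9 CPM in G2 cells and 127.5 ± 17.2 CPM in asynchronous cells (log2 −0.73, SE 0.18, edgeR adjusted p = 0.0374, called in 5 of 19 settings).

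With bortezomib, 10 of 26 other SR and SR-like genes and 8 of 30 hnRNP genes lay above G2 without overlap, beside 7.66% of all genes, though edgeR called none of these genes and DESeq2 called 1 gene higher in each of these lists. The same count was 4 of 18 for SR kinases, phosphatases and importins, 4 of 15 for nonsense-mediated decay and 1 of 39 for the core spliceosome. Median log2 fold changes were 0.43, 0.25, 0.28, 0.24 and 0.00 in that order of lists, beside −0.02 for all genes. For MG132 over G2 the counts without overlap were 0 of 26, 1 of 30, 0 of 18, 0 of 15 and 0 of 39, beside 2.07% of all genes. The medians there were 0.143, 0.111, 0.113, 0.155 and 0.063, beside −0.03 for all genes. Bortezomib libraries had GC slopes of −0.20 to −0.07 and G2 libraries of −0.08 to 0.36, and the part of this difference in the list counts was not tested.

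**Figure D5:**
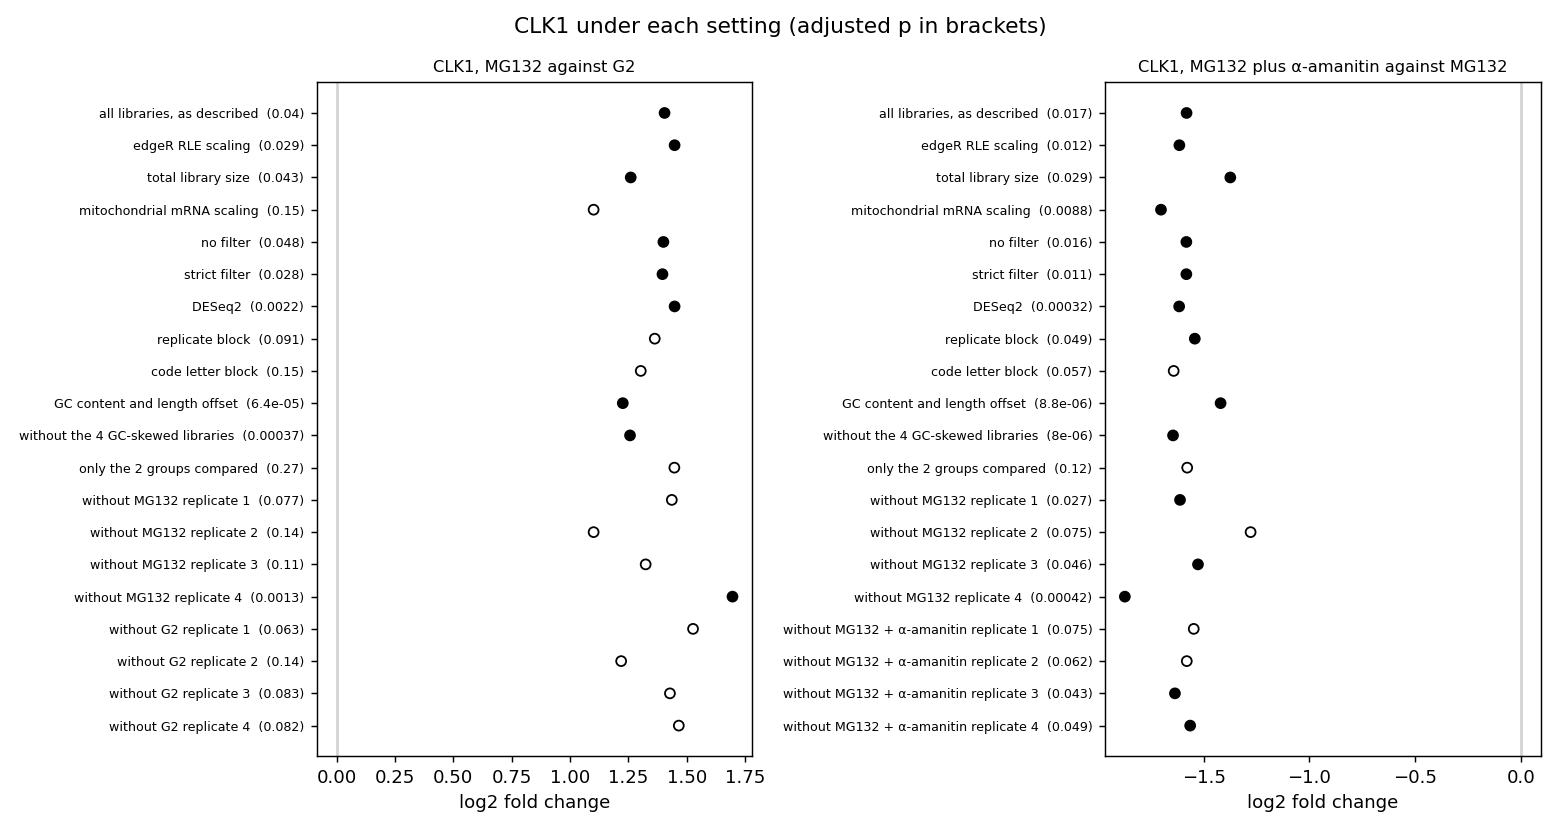
Log2 fold change of CLK1 for MG132 over G2 and for the combined treatment over MG132 under the main and the 19 alternative settings, with filled points for an adjusted p under 0.05 and open points otherwise. The values stay between 1.10 and 1.70 and between −1.87 and −1.28, called in 8 and in 14 of the 19 settings.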

How the data were processed

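Total RNA was extracted with TRIzol, freed of DNA, and sequenced as stranded libraries after removal of ribosomal RNA, per the labels' protocols. The authors deposited raw counts per gene as whole numbers with no normalisation, over 39918 genes and 1174 repeat subfamilies, and 0 columns were left out. Per the submitters' processing notes, FastQC, cutadapt 1.18, STAR and the build hg38 were used, without stated roles. How counting was done (tool, annotation, strand setting, reads with several alignments) is not given in the sources used here. Counts of genes with annotated pseudogenes (SRSF2, SRSF3, SRSF6, CLK2 and CLK3) or opposite-strand overlap (SRSF2 with MFSD11, CLK3 with EDC3) are therefore uncertain.

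The members, gene lists and tests were chosen with earlier results of these data known. Genes and repeats were fitted in 1 model by edgeR 4.0.16 under R 4.3.3 (filterByExpr, TMM, robust glmQLFit and glmQLFTest) over all 20 libraries, with 15 residual degrees of freedom, a biological coefficient of variation of 33.3% and Benjamini-Hochberg adjustment over 18959 genes. The threshold for a call was an adjusted p of 0.05. CPM were computed here from the deposited counts. Positions, exon lengths and GC content are from GENCODE 29 on hg38, with GC and length known for 98.6% of tested genes. All members were named, as were up to 4 called genes of each list with the smallest p, and the 3 genes most correlated with each called member among genes whose log2 CPM averaged 3 or more. Alternatives were scaling by RLE, by total counts or by the 13 mitochondrial mRNAs, a filter left out or made strict (4 samples with a CPM of 1 or more), DESeq2 1.42.0, blocks for the replicate number and for an undocumented letter in the sample codes, a loess offset for GC content and length (span 0.5, prior count 2), omission of the 4 libraries of steep GC slope, a fit of only the groups compared, and leaving out each library. The code was tested on simulated counts. Replicate pairs differed by 9.96 to 453.2 in chi-square per degree of freedom, so none was treated as a duplicate. Library totals were 26797395 to 39710457 counts.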

Additional observations from a re-analysis of the deposited data

Results flagged for a closer look

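SRSF4 in G2 replicate 1 lay far below the other libraries of its group. It had 44.1 CPM there, against 71.3, 75.8 and 74.6 CPM in G2 replicates 2 to 4, and the gap to the nearest library was 0.859 of the range of the group. It was the 1 group flagged among 50 groups of 4 libraries examined, where chance alone flags about 1 in 20. Without that library, the log2 fold change of SRSF4 in the combined treatment over G2 was −0.09, in place of 0.07.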

How the results depend on the processing

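CLK1 kept its direction under every one of the 19 alternatives in both of its called comparisons. The count of called members for MG132 against G2 was 1 by the described fit and 0 to 1 with a library left out. It was 0 with mitochondrial mRNA scaling, the code letter block, the replicate block and a fit of only the groups compared. In that order, those settings called 208, 204, 258 and 86 of all genes, where the described fit called 395. For the combined treatment against MG132 the count was also 1, and was 0 with the code letter block and a fit of only the groups compared. It was 2 with DESeq2 (SRSF2 and CLK1) and 2 without the 4 libraries of steep GC slope (CLK1 and CLK4). It was 4 with the GC and length offset (SRSF2, SRSF7, CLK1 and CLK4) and 0 to 4 with a library left out. In that order, these settings called 309, 189, 718, 425 and 848 of all genes, where the described fit called 415. Without MG132 replicate 4 it was 547 genes. For the combined treatment against G2 the count of members was 1 (CLK4) in place of 0 with the offset and without those 4 libraries. These settings called 1059 and 881 of all genes, in place of 636. For bortezomib against G2 the count of members was 1 (CLK1) in place of 0 without those 4 libraries, where 425 of all genes were called in place of 218. The fit of only the groups compared has fewer samples. For the other settings the cause was not tested.

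Replicate numbers did not pair the samples: correlations of deviations between same-numbered samples ran from −0.61 to 0.615, and 2 of 20 samples correlated best with their own number. With the replicate block CLK1 had a log2 fold change of 1.36 for MG132 over G2 (adjusted p = 0.0906) and −1.54 for the combined treatment over MG132 (adjusted p = 0.0494), and the all-gene calls were 258 in place of 395, 120 in place of 218 for bortezomib over G2, 3 in place of 7 for MG132 over bortezomib and 238 in place of 397 for G2 over asynchronous.

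The direction of 39 uncalled log2 fold changes turned under a setting other than leaving out a library. With the GC and length offset, bortezomib over G2 gave SRSF3 −0.292, SRSF4 −0.075, SRSF5 −0.006, SRSF6 −0.175, CLK2 0.064 and CLK4 −0.234, the combined treatment over G2 gave SRSF4 −0.165 and SRSF6 −0.127, and MG132 over bortezomib gave SRSF4 0.607 and SRSF5 0.198. With the code letter block, SRSF6 was −0.06 for the combined treatment over G2, CLK2 was 0.062 for the combined treatment over MG132, and for MG132 over bortezomib SRSF3 was −0.002, SRSF4 0.111, SRSF6 −0.032 and SRSF7 −0.158. With mitochondrial mRNA scaling, MG132 over G2 gave SRSF2 −0.076, SRSF5 −0.166, SRSF6 −0.044 and CLK3 −0.076, bortezomib over G2 gave SRSF3 −0.045 and SRSF6 −0.019, the combined treatment over G2 gave SRSF4 −0.312 and SRSF6 −0.397, and MG132 over bortezomib gave SRSF6 −0.025 and CLK4 0.0. That scaling moved the median of all genes to −0.29, −0.222 and −0.411 in the comparisons of MG132, bortezomib and the combined treatment with G2. With total counts, SRSF5 was −0.054 for MG132 over G2, SRSF5 0.005 and CLK2 0.115 for the combined treatment over MG132, and SRSF6 −0.059 and CLK4 −0.034 for MG132 over bortezomib, with all-gene medians of −0.152 for MG132 over G2 and 0.196 for the combined treatment over MG132. Without the 4 libraries of steep GC slope, SRSF2 was −0.029 for MG132 over G2, CLK2 0.166 for the combined treatment over MG132, and SRSF4 0.078 and SRSF6 −0.021 for MG132 over bortezomib. For the combined treatment over G2, SRSF6 was −0.002 with no filter, −0.02 with the strict filter and −0.015 in a fit of only these groups, and SRSF4 for MG132 over bortezomib was 0.015 with the strict filter.

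With a library left out, the ranges that crossed 0 were −0.047 to 0.592 (CLK4), −0.029 to 0.295 (SRSF2), −0.026 to 0.154 (SRSF5) and −0.042 to 0.427 (SRSF6) for MG132 over G2, −0.186 to 0.08 (CLK2) for bortezomib over G2, −0.085 to 0.138 (SRSF4) and −0.045 to 0.033 (SRSF6) for the combined treatment over G2, −0.143 to 0.038 (CLK2) and −0.428 to 0.041 (SRSF6) for the combined treatment over MG132, and −0.136 to 0.24 (CLK4) for G2 over asynchronous. For MG132 over bortezomib they were −0.248 to 0.018 (CLK2), −0.267 to 0.372 (CLK4), −0.283 to 0.041 (SRSF2), −0.082 to 0.414 (SRSF3), −0.099 to 0.073 (SRSF4), −0.226 to 0.242 (SRSF6) and −0.253 to 0.454 (SRSF7).

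Calls over all genes moved by over 1.5 times from 395 for MG132 over G2 (86 to 815 over settings other than leaving out a library), 218 for bortezomib over G2 (30 to 621), 636 for the combined treatment over G2 (224 to 1059), 415 for the combined treatment over MG132 (189 to 848, and 186 without replicate 1 of the combined treatment), 7 for MG132 over bortezomib (0 to 23) and 397 for G2 over asynchronous (8 to 1093).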
